A study of Arabidopsis thaliana with 14 samples.

Results

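Root tips of Arabidopsis thaliana seedlings kept on estradiol for 24 h were compared with root tips kept on estradiol for 12 h, so as to describe how the transcriptome moved on under continued induction. The arrays were chosen by their labelled treatment and time alone: 2 arrays of estradiol 24 h and 3 arrays of estradiol 12 h, which are 5 of the 14 arrays of the series. All 14 arrays carry RNA from the last 5 mm of the primary root of AtIPT8/pga22 seedlings, whose background is Wassilewskija. Seedlings had grown for 7 days on upright plates before liquid medium was added to them. The medium held 5 µM 17-beta-estradiol in the estradiol groups, nothing further in the control groups (24 h, 2 arrays, and 12 h, 3 arrays), and 5 µM trans-zeatin in the trans-zeatin groups (24 h, 2 arrays, and 12 h, 2 arrays). The series addresses the crosstalk of auxin and cytokinin in the root apex.

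In this line, as it is generally known, an estradiol-responsive promoter drives IPT8, although a T-DNA knock-out of the gene is what its label calls it. IPT8 is an isopentenyltransferase, an enzyme of the first step of cytokinin synthesis, so that estradiol is a switch for the plant's own cytokinin, whereas trans-zeatin is a cytokinin given from outside. Cytokinin is perceived by histidine kinase receptors and passed by phosphotransfer to response regulators; the type-A response regulators are early targets that dampen the signal. In the root tip cytokinin is known to restrain the meristem and to oppose auxin. No named probe set measures IPT8, so its level was not analysed here. Every array is of the same line, so an effect of estradiol itself and an effect of IPT8 cannot be told apart. The seedlings grew in a chamber labelled LD, and the labels give the duration of treatment but no clock time of harvest, so longer treatment, later age and another time of day cannot be told apart within the comparison either.

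The arrays of both times were much alike overall. Spearman's rho was 0.946 to 0.959 between estradiol 24 h and estradiol 12 h arrays and 0.944 to 0.959 between arrays of one time. For the actin control probes the ratio of 3'-end to 5'-end signal, a measure of RNA integrity and labelling, was 4.85 and 4.36 at 24 h and 3.31, 2.80 and 2.37 at 12 h. It was thus 1.64 times as high at 24 h, without overlap (two-sided exact permutation test p = 0.1, the smallest p that 2 against 3 arrays allow). The 25S ribosomal RNA probe set had signals of 1251 and 2680 at 24 h, against 139, 429 and 718 at 12 h. On the second principal component estradiol 12 h replicate 1 and control 12 h replicate 3 stood apart from the rest. On the third, estradiol 24 h replicate 2 and estradiol 12 h replicate 1 did (-32.3 and -29.8, with the next array at -11.5). The labels do not tell whether replicates came from separate cultures, and p-values therefore measure only the spread between these samples, which may be technical.

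Of 15605 probe sets tested, 80 were called between estradiol 24 h and estradiol 12 h (0.513%), 33 higher (0.211%) and 47 lower (0.301%). Called means a Benjamini-Hochberg adjusted p under 0.05 in limma, over all probe sets tested. In all 80 the signals of the groups did not overlap. Of all probe sets, 11.6% lay higher at 24 h without overlap and 13.2% lay lower. Among the called, 31 of the risen and 37 of the fallen changed at least 2-fold. The median log2 change of all probe sets was -0.0062, and 1524 had an unadjusted p under 0.05. Among the called, 28 pair with exactly 1 gene, 12 higher and 16 lower, and 52 have no gene named here. Leaving out estradiol 24 h replicate 2 left 21 calls. Leaving out both arrays that stood apart on the second component gave 121. With the actin ratio as a covariate 9 probe sets were called, and of the 25 named genes called here none was among them; how much of the changes goes with RNA integrity cannot be told apart from time, since the ratio separates the groups.

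**Figure D1:**
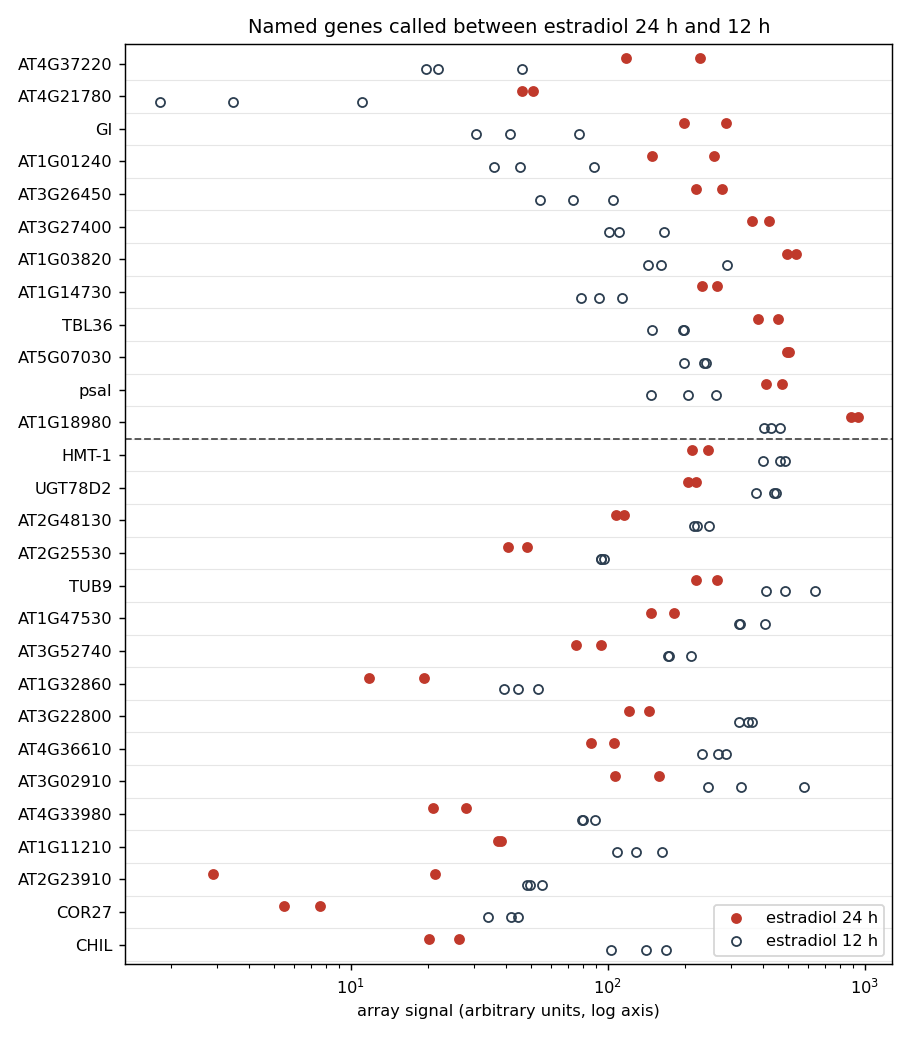
Array signal (arbitrary units, log axis) of the 28 named genes called between estradiol 24 h (filled points, 2 arrays) and estradiol 12 h (open points, 3 arrays), sorted by log2 change, with the 12 risen genes above the dashed line and the 16 fallen genes below it. In no gene do the points of the groups overlap, as in all 80 called probe sets.

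The few measured genes tied to the daily clock changed with time. Of 17 listed clock genes 3 were measured, and all 3 were called, 1 higher and 2 lower. Of all probe sets, 0.211% were called higher and 0.301% lower. The list was chosen with earlier results of these data known, so the count is a description only. GI (GIGANTEA), a clock component that promotes flowering in long days, had signals of 288 and 197 at estradiol 24 h, against 41.6, 30.6 and 77.5 at estradiol 12 h. Its log2 change was 2.21 ± 0.31 (SE), with a limma adjusted p of 0.0040. COR27, a clock-regulated and cold-regulated gene, had 7.60 and 5.47 at 24 h, against 44.8, 34.1 and 41.9 at 12 h, a log2 change of -1.86 ± 0.29 (limma adjusted p = 0.0073). AT4G33980, known as COR28 and the close relative of COR27, had 28.1 and 20.9 at 24 h, against 79.2, 80.2 and 88.7 at 12 h, a log2 change of -1.54 ± 0.23 (limma adjusted p = 0.0050). The estradiol 24 h signals of both were below every estradiol 12 h signal, and no called probe set overlapped between the groups. With a pseudocount 4 times as large the change of COR27 was -1.04.

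In the other treatments GI and the COR pair are given in turn. GI was also called higher with time in control (log2 change 2.75) and under trans-zeatin (2.41), and the test of a difference in its change missed the threshold (adjusted p = 0.79 against control and 0.96 against trans-zeatin). COR27 had a log2 change of 0.53 in control (adjusted p = 0.41), and -1.80 under trans-zeatin (adjusted p = 0.027). AT4G33980 had 0.77 in control (adjusted p = 0.16) and -0.17 under trans-zeatin (adjusted p = 0.83). The change of AT4G33980 under estradiol differed from that in control by -2.31 (limma adjusted p = 0.011), while for COR27 the difference missed the threshold (adjusted p = 0.054). The call of GI was lost without estradiol 24 h replicate 1 (adjusted p = 0.058), and those of COR27 and AT4G33980 without estradiol 24 h replicate 2 (adjusted p = 0.12 and 0.11). The difference of AT4G33980 from control was lost when estradiol 24 h replicate 2 was left out (adjusted p = 0.072), and also when control 24 h replicate 1 was (0.073).

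**Figure D2:**
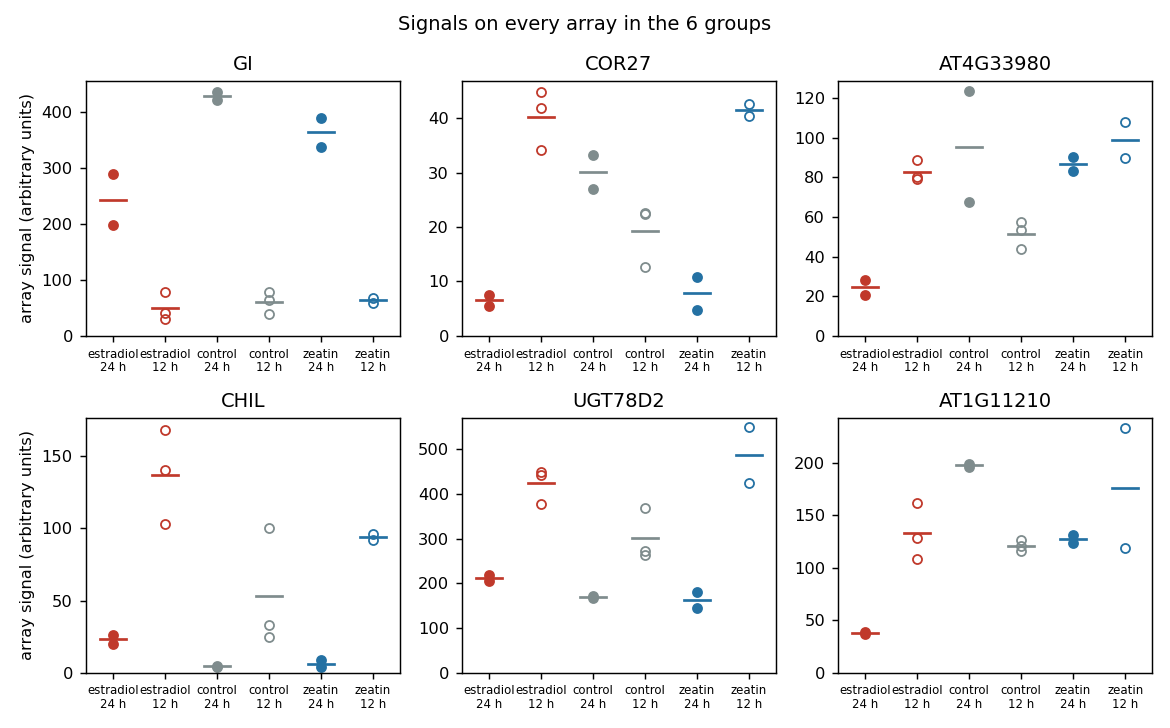
Array signal (arbitrary units, axes from 0) of 6 genes in each group; points are arrays and bars are group means, and for each treatment 24 h (filled) stands left of 12 h (open). The GI points of 24 h lie above and the CHIL and UGT78D2 points below those of 12 h in all 3 treatments, while for COR27, AT4G33980 and AT1G11210 they lie below under estradiol and above in control.

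CHIL and UGT78D2, of flavonoid metabolism, fell. UGT78D2 is not on the flavonoid list but is the 1 called of 27 UDP-glycosyltransferases, and it was put beside CHIL after values were seen. CHIL, a chalcone isomerase-like protein that raises flux into flavonoids, had 26.4 and 20.1 at estradiol 24 h, against 141, 169 and 103 at estradiol 12 h, a log2 change of -2.27 ± 0.41 (limma adjusted p = 0.021). UGT78D2, a glucosyltransferase that decorates flavonols and anthocyanins, had 205 and 219 at 24 h, against 378, 449 and 443 at 12 h, a log2 change of -0.97 ± 0.18 (limma adjusted p = 0.030). The times did not overlap in either gene, as in all 80 called probe sets. Of the 3 measured genes of the phenylpropanoid and flavonoid list, only CHIL was called, and all 3 log2 changes were below 0 (median -0.61): AT3G13610, the enzyme that opens scopoletin synthesis, had -0.61 (adjusted p = 0.66), and DFR, dihydroflavonol reductase, had -0.49 (adjusted p = 0.77). CHIL was also called lower in control (-2.26) and under trans-zeatin (-3.05), and UGT78D2 under trans-zeatin (-1.54); in control UGT78D2 had -0.79 (adjusted p = 0.093). The call of CHIL was lost without either estradiol 24 h array or without estradiol 12 h replicate 1 or 2 (adjusted p 0.052 to 0.25). That of UGT78D2 was lost without either estradiol 24 h array, either control 24 h array, or replicate 2 or 3 of estradiol 12 h (adjusted p 0.058 to 0.20).

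Some of the called genes encode enzymes or structural proteins of the wall, a protease or a tubulin; they are put side by side here by annotated family, after their values were seen. AT3G27400, a pectate lyase-like gene of pectin breakdown, had 363 and 424 at estradiol 24 h, against 111, 101 and 165 at estradiol 12 h, a log2 change of 1.63 ± 0.32 (limma adjusted p = 0.036). TBL36, of the family that acetylates wall polysaccharides, had 458 and 385 at 24 h, against 149, 196 and 198 at 12 h (log2 change 1.20 ± 0.21, limma adjusted p = 0.018). AT5G07030, an aspartyl protease family gene, had 508 and 498 at 24 h, against 242, 237 and 198 at 12 h (log2 change 1.14 ± 0.21, limma adjusted p = 0.029). All 3 were also called higher under trans-zeatin (2.05, 1.28 and 1.23). In control AT3G27400 had 0.82 (adjusted p = 0.26), TBL36 -0.30 (adjusted p = 0.54) and AT5G07030 -0.50 (adjusted p = 0.30). The test of a difference between estradiol and control was missed by all 3 (adjusted p = 0.67, 0.12 and 0.077).

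Among the fallen, AT3G22800, a leucine-rich repeat extensin of the cell wall, had 121 and 145 at estradiol 24 h, against 323, 352 and 364 at estradiol 12 h, a log2 change of -1.35 ± 0.22 (limma adjusted p = 0.0085). AT1G32860, a glycosyl hydrolase of the beta-1,3-glucanase family, had 11.8 and 19.3 at 24 h, against 44.6, 53.3 and 39.3 at 12 h (log2 change -1.27 ± 0.24, limma adjusted p = 0.032). TUB9, a beta-tubulin of microtubules, had 221 and 265 at 24 h, against 412, 489 and 639 at 12 h (log2 change -1.04 ± 0.21, limma adjusted p = 0.043). AT3G22800 was called lower in control too (-1.26), and it had -0.26 under trans-zeatin (adjusted p = 0.71). AT1G32860 had 0.05 in control and 0.61 under trans-zeatin, and TUB9 had -0.46 and -0.01, with none of these called. For AT3G22800, AT1G32860 and TUB9 the test of a difference from control was missed (limma adjusted p = 0.96, 0.26 and 0.63). That of a difference from trans-zeatin was missed too (limma adjusted p = 0.60, 0.23 and 0.60).

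The calls of these 6 genes were of different firmness. Each was lost without either estradiol 24 h array. AT3G22800 was lost in those 2 leave-outs only (adjusted p = 0.079 and 0.11). TBL36 was also lost without estradiol 12 h replicate 1 (adjusted p 0.052 to 0.16 over its 3 losses). AT3G27400 was also lost without estradiol 12 h replicate 1 or 2, control 12 h replicate 2 or either array of control 24 h (adjusted p 0.055 to 0.34). AT5G07030 was also lost without estradiol 12 h replicate 2 or 3 or either control 24 h array (adjusted p 0.054 to 0.23), and TUB9 without these or control 12 h replicate 1 or 2 (adjusted p 0.052 to 0.26). AT1G32860 was also lost without any estradiol 12 h array, either control 24 h array or control 12 h replicate 1 or 2 (adjusted p 0.052 to 0.24), and its change was -0.80 with a pseudocount 4 times as large. That of TUB9 was -0.50 with the actin ratio as a covariate.

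The wider families gave few calls. Of 21 measured expansins and xyloglucan enzymes, which loosen walls, none was called and the median log2 change was 0.0083, with 11 above 0. The pectin enzyme list (2 measured) and the extensin list (1 measured) held no call either. These lists do not hold the called genes AT3G27400 and AT3G22800, so they cover their families only in part. XTH20 had 247 and 237 at estradiol 24 h, against 154, 100 and 112 at estradiol 12 h (0.97, limma adjusted p = 0.13), and EXPA9 had 66.3 and 53.4, against 112, 143 and 112 (-0.96, limma adjusted p = 0.14). The median was 0.069 over 16 members of the TBL family, with TBL36 called, and -0.20 over 7 tubulins, with TUB9 called. The TBL and tubulin lists were added after values were seen.

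Several risen genes have other roles. AT4G37220, of the cold acclimation WCOR413 family, had 229 and 118 at estradiol 24 h, against 21.9, 19.6 and 46.2 at estradiol 12 h, a log2 change of 2.34 ± 0.38 (limma adjusted p = 0.0085). It had -0.04 in control and 1.16 under trans-zeatin, neither called. AT3G26450, of the major latex-like family, had 221 and 278 at 24 h, against 105, 54.2 and 73.2 at 12 h (log2 change 1.65 ± 0.23, limma adjusted p = 0.0034). AT1G14730, of the cytochrome b561 family of electron carriers in membranes, had 266 and 233 at 24 h, against 78.8, 92.2 and 114 at 12 h (log2 change 1.35 ± 0.18, limma adjusted p = 0.0028). All the 24 h signals of these 3 genes lay above their 12 h signals, and no called probe set overlapped between the groups. AT1G18980, of the germin-like family, had 885 and 936 at 24 h, against 403, 467 and 430 at 12 h (log2 change 1.06 ± 0.21, limma adjusted p = 0.037), and the log2 changes of this gene were -0.55 in control and -0.18 under trans-zeatin, neither called.

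The remaining risen nuclear genes, AT4G21780, AT1G01240 and AT1G03820, are given without a role. AT4G21780 was dim at 12 h (3.48, 1.81 and 11.1) and had 46.3 and 51.3 at 24 h, a log2 change of 2.31 ± 0.34 (limma adjusted p = 0.0050) that was 3.57 with no pseudocount and 1.28 with one 4 times as large. AT1G01240 rose by 1.77 and AT1G03820 by 1.43 on the log2 scale. The call of AT4G37220 was lost without estradiol 24 h replicate 1 (adjusted p = 0.14), and those of AT4G21780 and AT3G26450 without estradiol 24 h replicate 2 (0.099 and 0.087). AT1G01240 was lost without estradiol 24 h replicate 2, either array of control 24 h, or replicate 1 or 2 of estradiol 12 h (adjusted p 0.051 to 0.37). AT1G03820 was lost in 10 of the 14 leave-outs of 1 array, all but those of estradiol 12 h replicate 3, control 12 h replicate 3 and the trans-zeatin 12 h arrays (adjusted p 0.057 to 0.35). AT1G18980 was lost in 11, all but those of control 12 h replicate 3 and the trans-zeatin 12 h arrays (adjusted p 0.054 to 0.32). No leave-out of 1 array ended the call of AT1G14730.

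Among the other fallen genes, AT1G11210 had 38.3 and 37.3 at estradiol 24 h, against 162, 128 and 109 at estradiol 12 h, a log2 change of -1.64 ± 0.23 (limma adjusted p = 0.0042). In control it had 196 and 199 at 24 h, against 121, 116 and 126 at 12 h (0.68, limma adjusted p = 0.21), and the difference between these changes was -2.32 (limma adjusted p = 0.012). AT4G36610, of the alpha/beta-hydrolase family, had 86.2 and 106 at estradiol 24 h, against 287, 231 and 268 at estradiol 12 h (log2 change -1.39 ± 0.19, limma adjusted p = 0.0032). AT4G36610 stood at 75.5 and 71.4 in control at 24 h and at 79.6, 117 and 81.8 in control at 12 h, so that its estradiol 24 h signals were within the control range. AT1G47530, of the MATE family of efflux carriers, had 148 and 180 at estradiol 24 h, against 408, 323 and 327 at estradiol 12 h (log2 change -1.07 ± 0.18, limma adjusted p = 0.010). AT3G52740, known as BIC1 and a blue-light inhibitor of cryptochromes, had 75 and 93.6 at 24 h, against 173, 171 and 211 at 12 h (log2 change -1.08 ± 0.22, limma adjusted p = 0.043).

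AT1G47530 and AT3G52740 were also called lower under trans-zeatin (-1.31 and -1.60) and had -0.56 and -0.62 in control, not called. AT3G02910, of the gamma-glutamylcyclotransferase-like family, fell by 1.43, and AT2G23910 fell by 1.85, with signals of 2.92 and 21.2 at estradiol 24 h, against 48.3, 49.6 and 55.4 at estradiol 12 h. The call of AT4G36610 was kept in all 14 leave-outs of 1 array. That of AT1G11210 was lost without estradiol 24 h replicate 2 (adjusted p = 0.079), its difference from control without either estradiol 24 h or either control 24 h array (adjusted p 0.051 to 0.11), and the call of AT1G47530 without either estradiol 24 h array (0.066 and 0.13). For AT2G23910 the log2 change was -1.06 without estradiol 24 h replicate 1 and -1.08 with a pseudocount 4 times as large. Its call was lost in 11 leave-outs, all but estradiol 24 h replicate 2 and control 12 h replicates 1 and 3 (adjusted p 0.053 to 0.26). AT3G02910 was lost in 10 and AT3G52740 in 11, both among them those of each estradiol 24 h array, each control 24 h array, estradiol 12 h replicates 1 and 2 and control 12 h replicates 1 and 2 (adjusted p 0.051 to 0.28 and 0.050 to 0.27). For AT3G02910 the other 2 were the trans-zeatin 24 h arrays, and for AT3G52740 the other 3 were estradiol 12 h replicate 3 and the trans-zeatin 12 h arrays.

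Further large changes fell on probe sets with no gene named here. Probe set 248151_at had 183 and 964 at estradiol 24 h, against 6.58, 1.33 and 1.11 at estradiol 12 h, a log2 change of 5.58 ± 0.61 (limma adjusted p = 0.00041). Its 12 h signals are near or below the pseudocount of 6.3, so the size of this change is set in part by that choice: it was 7.62 with no pseudocount and 4.02 with one 4 times as large. Probe set 267002_s_at had 544 and 1747, against 22.5, 17.5 and 9.22 (5.48 ± 0.37, limma adjusted p = 3.6e-06), and 263345_s_at had 235 and 1142, against 27.1, 2.95 and 4.35 (5.15 ± 0.77, limma adjusted p = 0.0053). In these 3 the second estradiol 24 h array stood far above the first, and that array was more than 1.5 times the other in 9 of the 33 risen probe sets, against 1 the other way round. With time 267002_s_at was also called higher in control (2.29) and under trans-zeatin (3.01). Without estradiol 24 h replicate 2 the change of 263345_s_at was 4.02 and no longer called (adjusted p = 0.13).

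On the falling side 267364_at had 31.9 and 19.9 at estradiol 24 h, against 462, 383 and 602 at estradiol 12 h, a log2 change of -3.92 ± 0.27 (limma adjusted p = 3.6e-06). In control it had 418 and 273 at 24 h, against 240, 343 and 230 at 12 h (0.34, limma adjusted p = 0.58), so the low signals at estradiol 24 h were below all control signals. Under trans-zeatin it was called lower (-2.23). Probe sets 250533_at and 249606_at fell by 3.09 and 2.93 and were called lower in control (-3.11 and -2.26) and under trans-zeatin (-4.14 and -2.56) as well. With the actin ratio as a covariate the change of 250533_at was -1.74. Probe sets 267002_s_at, 267364_at and 249606_at kept their calls in all 14 leave-outs of 1 array and with the actin ratio as a covariate.

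The same interval of time was then set beside that of the other treatments. They share no array with the estradiol comparison, but the same fit gave all 3 treatments a common spread per probe set. A probe set of small spread is likelier to be called in several treatments, so counts of shared calls are in part set by that. The actin ratio of the other treatments was also higher at 24 h. It was 6.24 and 6.44 against 3.58, 4.93 and 3.23 in control, and 4.30 and 3.71 against 2.85 and 2.55 under trans-zeatin. For changes shared between treatments, time and this shift in the ratio therefore cannot be told apart. In control 73 probe sets were called with time (0.468%), and under trans-zeatin 50 (0.32%). Of the 80 called under estradiol, 21 were also called in control, which is 26.2% of the estradiol list and 28.8% of the control list, 18 of them with the same sign. For trans-zeatin 28 were shared, 35.0% of the estradiol list and 56.0% of the trans-zeatin list, all 28 with the same sign. Over the 80, the change had the sign of the control change in 59 and of the trans-zeatin change in 72, and it was larger in size than the control change in 74 and than the trans-zeatin change in 63. The 80 were selected for a large change under estradiol, so a smaller one elsewhere is in part set by that choice. Over all 15605 probe sets Pearson's r was 0.17 with the control change and 0.23 with the trans-zeatin change, a description across genes that are not independent.

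In 15 probe sets the change with time was called under all 3 treatments, GI and CHIL among them, and 13 with no gene named here. AT4G33980 and AT1G11210 are the named genes that passed the test of a difference from control. Over all probe sets that test called 12 (0.0769%), 4 with a higher (0.0256%) and 8 with a lower change under estradiol (0.0513%), and 1323 had an unadjusted p under 0.05. The difference from trans-zeatin called 2 (0.0128%), and 1092 had an unadjusted p under 0.05. The first count was 3 without control 24 h replicate 1, 5 without control 24 h replicate 2, 6 without estradiol 24 h replicate 2 and 20 without estradiol 12 h replicate 1. The second was 0 without estradiol 24 h replicate 2 or either trans-zeatin 24 h array, 1 without either control 24 h array, control 12 h replicate 2 or replicate 1 of either estradiol time, and 9 without trans-zeatin 12 h replicate 1.

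**Figure D3:**
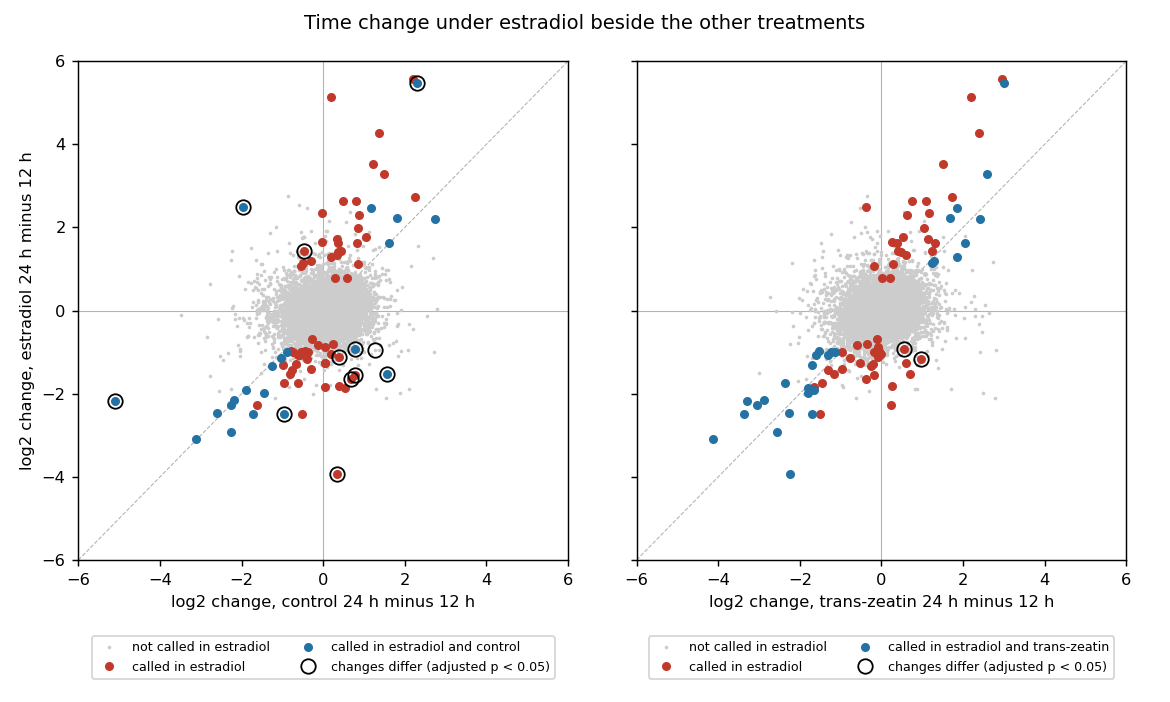
Log2 change from 12 h to 24 h under estradiol (vertical axis) against that in control (left) and under trans-zeatin (right) for 15605 probe sets; coloured points are the 80 called under estradiol, blue where also called in the other treatment, and rings mark probe sets whose changes differ in limma. Beside control 59 of the 80 share the sign, and beside trans-zeatin 72 do.

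No measured gene of the cytokinin lists was called. RR16, a type-A response regulator, had 114 and 96.7 at estradiol 24 h, against 105, 59.2 and 79.4 at estradiol 12 h (log2 change 0.38, limma adjusted p = 0.69), and the ranges overlapped; control arrays ran from 5.25 to 11.6. ARR15, of the same class, had 35.2 and 34.0, against 24.2, 30.8 and 16.4 (0.47, limma adjusted p = 0.76). Of 10 type-A response regulators on the list, these 2 could be measured. Of the genes that remove cytokinin, the glucosyltransferases UGT76C2 (-0.37) and UGT76C1 (0.02) were measured and not called. A missed threshold with 2 and 3 arrays does not show that the levels were equal.

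A list of cytokinin-responsive probe sets was taken from trans-zeatin against control at 12 h, arrays that the estradiol comparison does not use. Trans-zeatin changed 7.54% of probe sets there. It raised 501 (3.21%), and in the estradiol comparison their median log2 change was 0.023, with 270 above 0, 7 called higher and 7 called lower (1.40% each, against 0.211% higher and 0.301% lower of all probe sets). It lowered 675 (4.33%), and their median was -0.030, with 307 above 0, none called higher and 2 called lower (0.296%). The median of all probe sets was -0.0062 and 7660 of 15605 were above 0. Both medians changed sign when 1 array was left out: the first was -0.026 without estradiol 12 h replicate 1 and -0.019 without replicate 2, and the second was 0.024 without estradiol 24 h replicate 2 and 0.010 without estradiol 12 h replicate 2.

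None of the single genes that trans-zeatin changed most at 12 h was called. AT3G28320 had 898 and 579 at estradiol 24 h, against 681, 849 and 629 at estradiol 12 h (0.02, limma adjusted p = 0.996), where control arrays ran from 22.1 to 102. ATC, a relative of the flowering repressor TFL1, had 10.8 and 14.5, against 15.0, 39.5 and 67.5 (-1.14, limma adjusted p = 0.50), where control arrays ran from 918 to 1330. The same held for all of the 10 most raised and the 10 most lowered genes of that list.

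The trans-zeatin lists of 24 h, which hold 3.47% of probe sets, were added after the data were seen and share the pooled spread too. The 335 probe sets higher than control at 24 h (2.15%) had a median log2 change of 0.16 under estradiol, with 220 above 0, 11 called higher (3.28%, against 0.211% of all probe sets) and 4 lower (1.19%, against 0.301%). The 206 lower than control (1.32%) had a median of -0.096, with 85 above 0, 1 called higher (0.485%) and 4 lower (1.94%). Lists chosen for a level at 24 h hold changes with time by their choice, so a shift in both treatments is read from them only as a description.

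**Figure D4:**
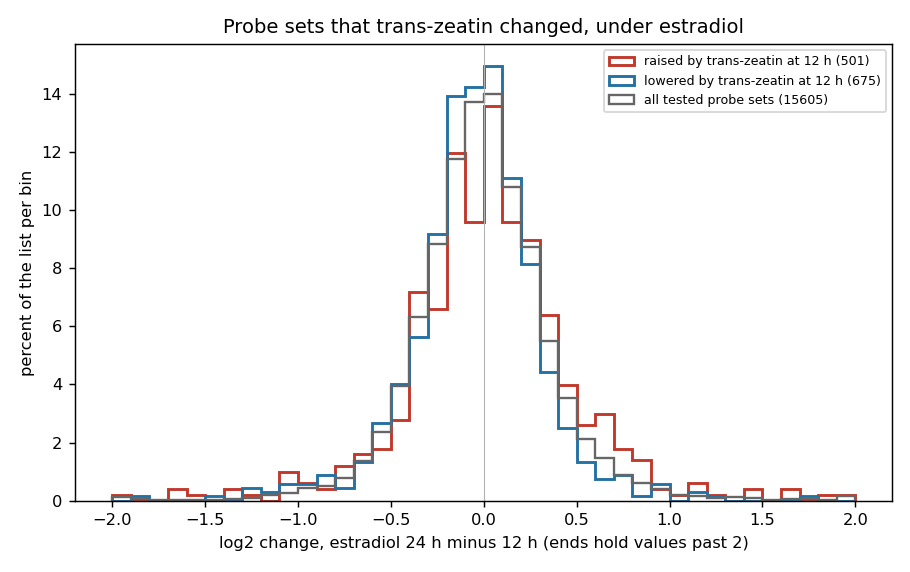
Distribution of the log2 change between estradiol 24 h and 12 h (horizontal axis, percent of each list per bin on the vertical axis) for the 501 probe sets raised and the 675 lowered by trans-zeatin at 12 h, and for all 15605 tested. All 3 distributions peak near 0, with medians of 0.023, -0.030 and -0.0062.

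Chloroplast-encoded genes lay on the higher side at estradiol 24 h. All 61 measured genes had a log2 change above 0 under estradiol, with a median of 0.67, and 11 of them were at least 2-fold higher. Both estradiol 24 h signals lay above all estradiol 12 h signals in 39 of the 61, where 11.6% of all probe sets did so. Of the 61 the test called only psaI, a subunit of photosystem I, which had 412 and 474 at 24 h, against 206, 263 and 147 at 12 h (1.12 ± 0.21, limma adjusted p = 0.032). That call was lost in 10 of 14 leave-outs of 1 array, all but estradiol 12 h replicate 2, control 12 h replicate 3 and the trans-zeatin 12 h arrays (adjusted p 0.052 to 0.34). Next came rpoC2, a subunit of the plastid RNA polymerase, with 406 and 334, against 129, 155 and 95.1 (1.52, limma adjusted p = 0.057), and psbT, of photosystem II, with 41.0 and 80.2, against 20.9, 8.52 and 9.07 (1.80, limma adjusted p = 0.12).

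The median signal of the 61 genes was 234 and 320 on the estradiol 24 h arrays, against 200, 151 and 147 on the estradiol 12 h arrays. In control the median log2 change with time was 0.30, with 47 of 61 above 0, and under trans-zeatin it was -0.16, with 21 above 0. No single gene of the 61 passed the test of a difference from control or from trans-zeatin. Without estradiol 24 h replicate 2 the median change was 0.50, and without replicate 1 it was 0.81. Of 18 probe sets of mitochondrial genome genes none was called, and their median was 0.16 under estradiol, 0.91 in control and 0.27 under trans-zeatin.

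Of 4 measured nuclear markers of green shoot cells, 3 had their highest signal on estradiol 24 h replicate 2. PSBW, a photosystem II subunit, had 149 and 665 at estradiol 24 h, against 198, 74.9 and 44.7 at estradiol 12 h (1.77, limma adjusted p = 0.33). LHCB4.1, a light-harvesting protein, had 197 and 480, against 230, 115 and 51.5 (1.41, limma adjusted p = 0.31), and PSBY had 137 and 348, against 123, 70.4 and 64.7 (1.34, limma adjusted p = 0.18). The fourth, LHCB4.3, lay the other way, with 57.6 and 48.5 at estradiol 24 h, against 77.0, 81.7 and 66.8 at estradiol 12 h (-0.46, limma adjusted p = 0.45), without overlap. Summed over the list's 5 probe sets the signal was 551 and 1624 at estradiol 24 h, against 629, 344 and 228 at estradiol 12 h, and from 304 to 657 on the control and trans-zeatin arrays. The same array also had the highest signals of 248151_at, 267002_s_at and 263345_s_at. The markers' part in these results was not tested. In root tips measured in bulk, more cells of a type and more RNA per cell cannot be told apart.

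**Figure D5:**
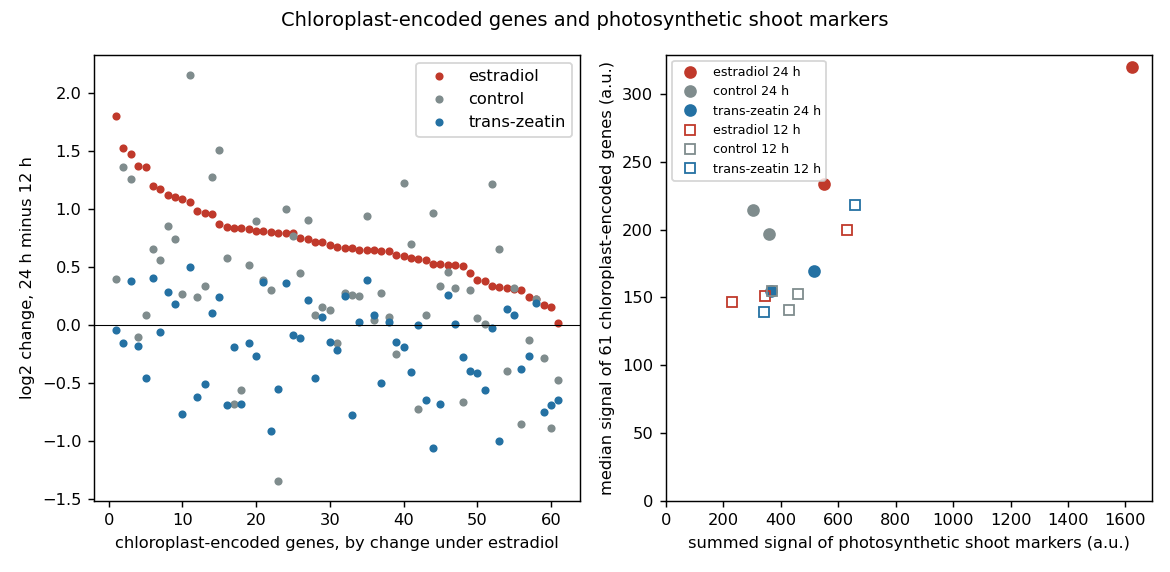
Left, log2 change between 24 h and 12 h of the 61 chloroplast-encoded genes under estradiol, in control and under trans-zeatin, sorted by the change under estradiol, which is above 0 in all 61. Right, median signal of these genes against the summed signal of 5 photosynthetic shoot marker probe sets on each array (arbitrary units, axes from 0), where 1 estradiol 24 h array stands apart at 1624 and 320.

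The auxin genes that could be measured gave no call, but the lists were covered only in part. GH3.3, which conjugates auxin to amino acids, had 692 and 836 at estradiol 24 h, against 270, 300 and 556 at estradiol 12 h, so that the groups did not overlap, yet the log2 change of 1.08 was not called (limma adjusted p = 0.48). Of 10 listed genes of auxin conjugation and oxidation 5 were measured, with a median of 0.20. Of 25 listed genes of auxin and tryptophan synthesis 3 were measured, with a median of 0.031. The 3 measured Aux/IAA repressors had 0.11. None of 12 listed auxin transport genes and no gene of the SAUR list was measured. For the measured genes, a missed threshold does not show that the levels were equal. The founder genes of lateral roots, PUCHI and LBD16, had -0.44 and -0.13 and were not called. The mitotic kinases AUR1 and AUR2 had -0.014 and -0.21, the replication helicase gene PRL had -0.030, and the meristem regulator JKD had 0.26; none was called.

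Stress and redox lists gave no call either. PDC2, pyruvate decarboxylase of the low-oxygen response, had 187 and 120 at estradiol 24 h, against 836, 352 and 253 at estradiol 12 h (-1.45, limma adjusted p = 0.17), with the highest signal on estradiol 12 h replicate 1, an array that stood apart. The 17 glutathione transferases and glutaredoxins had a median of 0.30, with 14 above 0 and none called. Of 27 UDP-glycosyltransferases UGT78D2 alone was called, and the median was -0.093. WRKY53, a senescence-associated transcription factor, had 178 and 218, against 99.9, 111 and 101 (0.88, limma adjusted p = 0.18). The root hair expansins EXPA7 and EXPA18, markers of root hair cells, had -0.024 and -0.21 and their summed signal overlapped between the times.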

How the data were processed

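RNA of 14 samples was measured on Affymetrix ATH1 arrays, 1 colour, 1 sample per array. The values deposited by the authors are linear signal intensity per probe set, made with MAS5 and GCOS per the submitters' processing notes. Neither version nor parameters were given in the sources used here. Each array's mean, trimmed by 2% at each end, was 100, so no further normalization was applied. The analysis used log2 of the intensity plus 6.3 (the 20th percentile of all values), which understates the fold of dim signals.

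Of 22810 probe sets, 64 controls were left out; 13513 pair with 1 gene, 503 with several and 8730 with none in the platform annotation, and 13436 of the first were matched to a gene table of assembly TAIR10.1 for names. Probe sets over a signal of 23.0 (40th percentile) on at least 2 arrays were kept: 15605. limma 3.58.1 (R 4.3.3) fitted 1 mean per group to all 14 arrays with a variance trend on intensity, two-sided, on 8 residual and 5.96 prior degrees of freedom, with no replicate block; every adjusted p in the text is from this fit. The number of arrays limits the precision.

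Named genes are the 12 risen and 12 fallen of largest fold among called probe sets with 1 gene and no overlap, 3 and 3 without a named gene, the called differences between time changes, up to 4 members per list by lowest p, the 10 genes most raised and the 10 most lowered by trans-zeatin at 12 h, and IPT8. Fallen genes beyond the 12 of the rule are shown in a plot only, except UGT78D2, named through its list. Of 50 lists, 36 had a measured member. The comparison, lists and members were chosen with earlier results of these data known, and 5 lists were added after values were seen.

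Same-numbered replicates were checked for pairing: of 31 pairs of groups' deviations, 3 correlated over 0.1 (range -0.27 to 0.19; estradiol 24 h with 12 h, -0.22 to -0.17), so the numbers do not pair the samples. The alternatives were another pseudocount, filter, normalization, variance model, set of arrays, a replicate block and the actin ratio as a covariate.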

Additional observations from a re-analysis of the deposited data

Results flagged for a closer look

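In 14 cases a difference between time changes passed the test, meaning that the change from 12 h to 24 h under estradiol was not the same as under another treatment. Against control, the log2 change under estradiol was lower for AT4G33980 by -2.31 (limma adjusted p = 0.011) and for AT1G11210 by -2.32 (adjusted p = 0.012), both described above. The probe sets without a named gene that were lower are 267364_at (-4.26), 259990_s_at (-3.11), 261613_at (-2.23), 263548_at (-1.72), 257985_at (-1.53) and 252475_s_at (-1.51). Those that were higher are 261569_at (4.46), 267002_s_at (3.19), 250207_at (2.93) and 251962_at (1.90). Against trans-zeatin, the change was lower for 262908_at (-2.14) and again for 263548_at (-1.49).

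The largest of these turned direction. Probe set 261569_at had 155 and 168 at estradiol 24 h, against 16.8, 39.0 and 19.2 at estradiol 12 h (log2 change 2.49), while in control it had 19.6 and 5.04 at 24 h, against 74.2, 66.6 and 45.2 at 12 h (log2 change -1.97), both called. Probe set 259990_s_at ran the other way, with 12.6 and 7.65 at estradiol 24 h, against 33.4, 35.2 and 56.5 at estradiol 12 h, and in control 111 and 103 at 24 h, against 22.6, 42.8 and 32.5 at 12 h. Probe set 263548_at had 820 and 704 at estradiol 24 h, against 1598, 1318 and 1466 at estradiol 12 h, and in control 3645 and 3607 at 24 h, against 2392, 2005 and 1931 at 12 h. Probe set 250207_at fell with time in all 3 treatments, least under estradiol (-2.17) and most in control (-5.10).

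Of the 12 differences from control, 261569_at, 263548_at and 267364_at kept their call under all 25 alternatives. Probe set 252475_s_at lost it under 19, 267002_s_at under 17 and 251962_at under 16, while 261613_at lost it under 10 and the remaining 5 under 1 to 4. Of the differences from trans-zeatin, 262908_at lost its call under 7 alternatives and 263548_at under 14.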

How the results depend on the processing

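No called gene or probe set named for estradiol 24 h against 12 h changed direction under any of 25 alternatives, but most calls depended on the spread being pooled and on single arrays. The count of 80 became 30 with only the contrast's groups, 53 with a replicate block, 9 with the actin ratio as a covariate and 121 without both arrays that stood apart on the second component, and ran from 21 to 102 when 1 array was left out. Of 31 named calls, 11, 17, 3 and 24 were kept under the first 4 of these settings. The difference from control (12 calls) became 19 without both arrays that stood apart and ran from 3 to 20 over leave-outs of 1 array; the replicate block gave 11. The difference from trans-zeatin (2 calls) became 1 with no filter and 0 with no intensity trend, with only the contrast's groups or without both arrays, and ran from 0 to 9. The control count of 73 became 48 with no filter, 46 with no intensity trend, 20 with the replicate block and 1 with the actin ratio, and ran from 10 to 93. The trans-zeatin count of 50 became 7 with the actin ratio and 106 without both arrays, and ran from 10 to 128. The 1176 probe sets called for trans-zeatin against control at 12 h became 439 with only those groups and 130 with the actin ratio, and ran from 264 to 1373. In leave-outs that left a group with 1 array, that array was taken to vary like the other groups. Why the counts moved was not tested.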

Other observations

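Secreted peptides and metabolic families not described above also gave no call. Some members lay without overlap between the groups, as 11.6% of all probe sets did on the higher side and 13.2% on the lower. The members given are among those of lowest p in their lists. CLE27, of the CLE family of signalling peptides, had 8.19 and 15.5 at estradiol 24 h, against 2.38, 1.55 and 3.25 at estradiol 12 h (log2 change 1.04, limma adjusted p = 0.47), at signals below the filter on every one of these arrays. PDF1.4, a defensin-like peptide, had 19.3 and 25.3, against 76.3, 55.6 and 39.2 (-1.11, limma adjusted p = 0.51). SCPL49, a serine carboxypeptidase-like gene, had 465 and 444, against 644, 761 and 698 (-0.62, limma adjusted p = 0.17). Over the lists, the median log2 change was -0.043 for 18 small secreted peptides, 0.19 for 19 serine carboxypeptidase-like genes and 0.025 for 11 beta-glucosidases, beside -0.0062 for all probe sets.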
